A study of Mus musculus with 12 samples.

Results

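Solute carriers are the transporters that move nutrients, metals, nucleosides and other small molecules across cell membranes, and 229 of the 13283 genes tested on one-colour Agilent arrays of mouse peritoneal macrophages carried such a name. A gene was taken if its symbol began with Slc and a digit, or with Slco, and if one of its probes had the scanner's flag for a signal well above background on each of the 3 arrays in 1 or more of the 4 groups. The brightest such probe stood for the gene. The genes were thus selected on their signal level, so levels are given as a description, and differences between groups were tested. Of 392 solute carrier genes on the array, 163 did not meet the rule. Of the 229, 203 were above background on all 12 arrays and 227 are protein coding. The 11 that passed through a single group had group means between -3.76 and -2.52 there on the log2 scale described below, and the 12 genes just short of the rule lay between -4.52 and -3.42. Those 11 had to be brighter in that group and are no support for a change. They include 5 genes called higher and 1 called lower with LPS in KO cells, and 1 higher and 2 lower in WT cells, which the counts below contain. Genes that passed only through the LPS groups, or only through the PBS groups, were likewise selected on that difference. Among them are Slco2b1 and, outside the family, Hamp (LPS groups), and Slc40a1, Slc22a23 and Slc25a27 (PBS groups). Their LPS differences are a description and no support for a change.

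Macrophages from the abdominal cavity of C57/BL6 mice, cultured in DMEM with serum, were compared in 4 groups of 3 arrays. The groups were cells without the receptor GPR15 (KO) given LPS at 100 ng/ml for 4 h (KO LPS) or PBS (KO PBS), and wild-type cells (WT) given LPS (WT LPS) or PBS (WT PBS). LPS, lipopolysaccharide, comes from the wall of Gram-negative bacteria and activates macrophages, and GPR15 is a G protein-coupled receptor known from the homing of lymphocytes to the gut. The labels state neither a step that removed other cell types nor that each array had its own mouse, so p-values may measure technical spread alone.

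Solute carrier families are numbered by sequence, and members of a family often share a kind of substrate. In macrophages they decide which metals an engulfed microbe meets, how much arginine reaches the enzyme that makes nitric oxide, and how lactate leaves the cell. A few of the symbols do not name a carrier: Slc9a3r1 and Slc9a3r2 are scaffolds, Slc4a1ap is an adaptor, and Slc22a13b and Slc2a4rg-ps are pseudogenes. Slc7a6os is a separate gene on the strand opposite to Slc7a6.

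Levels are the log2 of the scanner's processed signal minus the log2 of the array's 75th percentile. Differences are on that log2 scale, with the standard error (SE) from limma, and a gene was called where its adjusted p over all 13283 genes was below 0.05. The 3 KO LPS arrays and KO PBS replicate 3 were on slide 2, and KO PBS replicates 1 and 2 and the 6 WT arrays on slide 1, so that no slide held LPS-treated cells of both genotypes. The Gpr15 probe was above background on 0 of 12 arrays and does not check the knockout. The Xist probe was above background on 0 KO arrays and on all 6 WT arrays, and that of the Y-linked gene Ddx3y on all 6 KO arrays and on 0 WT arrays, so genotype and sex cannot be told apart. Of 12 macrophage markers, 11 were above background, and LPS raised 2 and lowered 7 of them in KO cells and raised 3 and lowered 7 in WT cells, among them Csf1r (-1.13 in KO cells and -1.28 in WT cells) and Mertk (-1.05 and -1.41). Their summed log2 level was 9.49 to 9.54 in KO LPS cells, against 9.50 to 9.65 in KO PBS cells, and 9.46 to 9.61 in WT LPS cells, against 9.45 to 9.57 in WT PBS cells. Of 12 B-cell markers, 11 were above background, and LPS lowered 8 and raised 1 of them in KO cells and lowered 7 and raised 1 in WT cells. Their summed log2 level was 5.94 to 5.99 in KO LPS cells, against 6.88 to 6.96 in KO PBS cells, and 6.25 to 6.50 in WT LPS cells, against 7.18 to 7.51 in WT PBS cells. Of 8 mast-cell markers above background, LPS raised 3 and lowered 1 in KO cells and raised 3 and lowered 2 in WT cells. Their summed log2 level was 7.55 to 7.68 in KO LPS cells, against 6.63 to 6.86 in KO PBS cells. It was 7.91 to 8.04 in WT LPS cells, against 6.80 to 7.23 in WT PBS cells. The part of these markers and cell types in the results below was not tested. In such bulk samples a change in the number of cells of a type and in the RNA per cell cannot be told apart.

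LPS changed the solute carriers in both directions. In KO cells the calls were 73 higher (31.9%, against 35.1% of all genes tested) and 78 lower (34.1%, against 32%), together 65.9% against 67%. In WT cells they were 68 higher (29.7%, against 33.7%) and 79 lower (34.5%, against 31%), together 64.2% against 64.7%. These shares lie near the background. Calls with an estimate of at least 2-fold covered 45 genes in KO cells (19.7%, against 14.4% of all genes) and 45 in WT cells (19.7%, against 15.6%). The median difference was -0.01 over solute carriers and 0.04 over all genes in KO cells, and -0.03 and 0.03 in WT cells. Both genotypes called 58 of the genes higher and 68 lower, and 0 genes were called in opposite directions. The matching share over all genes tested was not counted, so these overlaps, and those in a single genotype below, are no result about solute carriers. Without the 11 genes that passed through a single group the counts were 68 higher and 77 lower in KO cells and 67 higher and 77 lower in WT cells. A further 25 were called in KO cells only and 21 in WT cells only, which is no test of a difference between the genotypes. That test is given at the end. With the replicate number as a block, the WT calls numbered 77 higher and 83 lower. The labels do not say what a replicate number stands for.

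**Figure D1:**
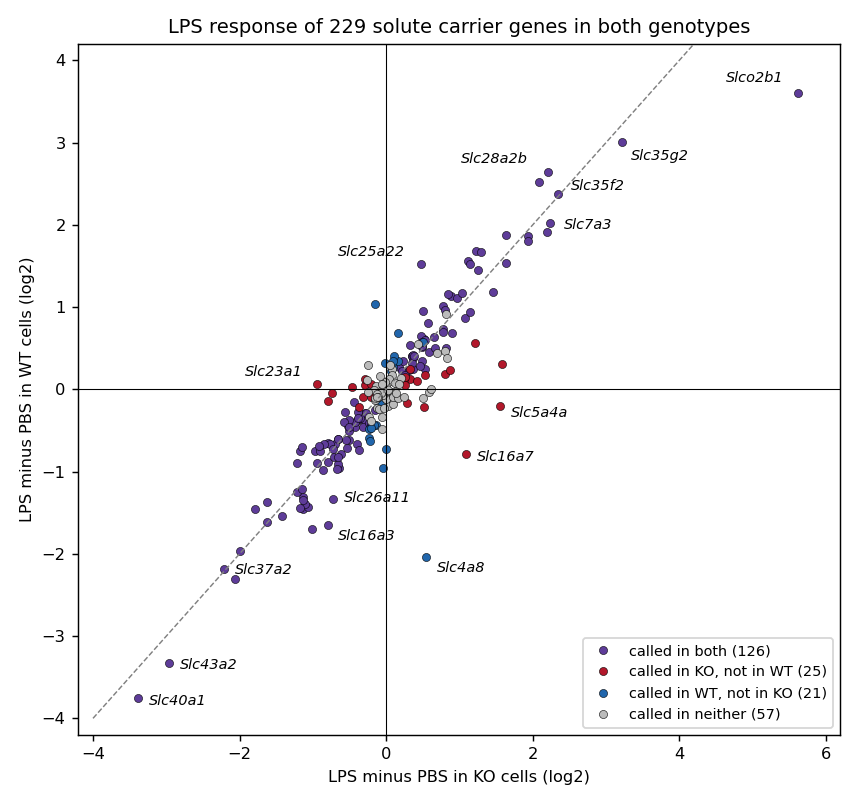
Difference between LPS and PBS in KO cells (x axis, log2) and in WT cells (y axis, log2), 1 point per solute carrier gene, coloured by the comparison that called it. Of the 229 genes, 126 were called in both genotypes, 25 in KO only, 21 in WT only and 57 in neither.

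**Figure D2:**
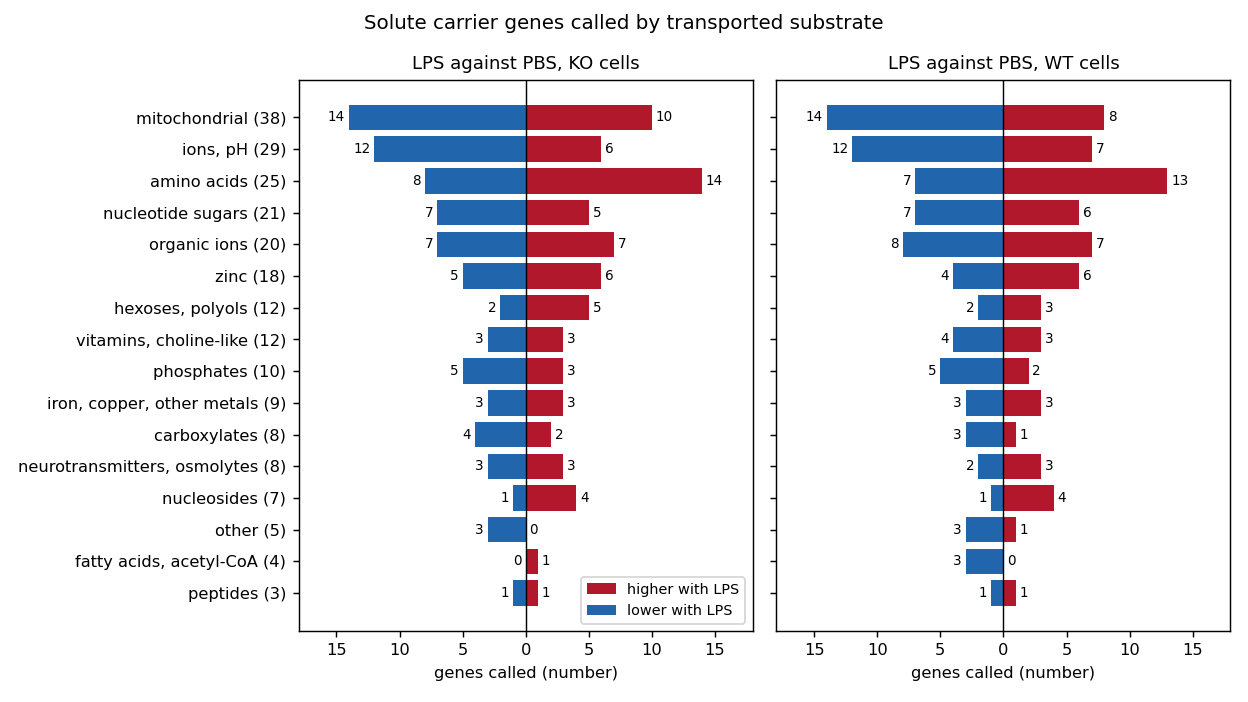
Number of solute carrier genes called higher and lower with LPS (bars) in KO cells (left) and WT cells (right), by the substrate class given to their family number. Of 25 amino acid carriers 14 were higher and 8 lower in KO cells and 13 higher and 7 lower in WT cells, and of 38 mitochondrial carriers 10 were higher and 14 lower in KO cells and 8 higher and 14 lower in WT cells.

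Of 25 amino acid carriers, 14 were called higher and 8 lower in KO cells, where 35.1% of all genes tested were higher and 32% lower. In WT cells 13 were called higher and 7 lower, where 33.7% of all genes were higher and 31% lower. The class counts below stand beside these same shares of all genes. Whether this class, or any class below, differs from other genes was not tested. Classes follow the family number, with a few genes moved by substrate, so a class can hold genes that carry something else or nothing. The amino acid class thus holds Slc43a3 and Slc7a6os, and the ion class holds Slc9a3r1, Slc9a3r2 and Slc4a1ap. The importers of arginine and lysine were among those that rose. Slc7a2 (CAT2), the arginine importer known from activated macrophages, lay at 5.73, 5.76 and 5.78 on the KO LPS arrays, against 4.41, 4.45 and 4.62 on the KO PBS arrays. It lay at 5.37, 5.52 and 5.45 on the WT LPS arrays, against 4.06, 3.95 and 3.97 on the WT PBS arrays. All LPS arrays lay above all PBS arrays of either genotype, by 1.26 ± 0.06 in KO cells (SE, n = 3 per group, limma adjusted p = 7.93e-09) and 1.45 ± 0.06 in WT cells (adjusted p = 2.14e-09). Slc7a3 (CAT3), a related cationic amino acid importer, lay at 1.17 to 1.33 in KO LPS cells, against -1.05 to -0.93 in KO PBS cells, and at 1.07 to 1.24 in WT LPS cells, against -0.94 to -0.87 in WT PBS cells. The groups did not overlap, and the difference was 2.23 ± 0.07 in KO cells and 2.02 ± 0.07 in WT cells. The broadly expressed arginine importer Slc7a1 (CAT1) rose by 0.97 ± 0.04 in KO cells and 1.11 ± 0.04 in WT cells.

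Of 6 enzymes that use or make arginine or act on the way to polyamines, 3 rose and 2 fell in KO cells and 3 rose and 3 fell in WT cells. Nos2, which makes nitric oxide from arginine, differed by 3.67 in KO cells and 5.26 in WT cells. Arg2, which splits arginine, differed by 1.40 in KO cells and 1.74 in WT cells, and Odc1, the next step towards polyamines, by 1.75 in KO cells and 1.62 in WT cells. Ass1 and Asl, which rebuild arginine from citrulline, fell: their differences were -0.82 and -0.59 in KO cells and -0.66 and -0.69 in WT cells. Arg1, the other arginase, differed by -0.74 in KO cells, which was not called, and by -1.51 in WT cells.

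Among carriers of neutral amino acids, Slc1a4 (ASCT1), which exchanges alanine, serine and cysteine, rose by 1.94 ± 0.19 in KO cells and 1.86 ± 0.19 in WT cells. Slc7a5 (LAT1), the importer of leucine and other large amino acids, rose by 0.85 ± 0.10 in KO cells and 1.16 ± 0.10 in WT cells. Its heavy chain Slc3a2 rose by 0.34 ± 0.09 in WT cells (adjusted p = 0.00498), a call lost with quantile normalization (0.07, adjusted p = 0.518), and had a difference of 0.16 ± 0.09 in KO cells that was not called (adjusted p = 0.117), although it was called with the slide as a term in the fit (0.38). Slc7a11 (xCT), which imports cystine for glutathione, rose by 0.53 ± 0.09 in KO cells (adjusted p = 0.00022). In WT cells its difference of 0.17 ± 0.09 was not called (adjusted p = 0.113), and was called with the replicate block (adjusted p = 0.0284). Of 5 glutathione enzymes, 1 rose and 4 fell in each genotype. Chac1, which breaks glutathione down, differed by 1.31 in WT cells and was also called higher in KO cells. Gclm and Gss, which make it, fell, with differences of -1.17 and -1.26 in KO cells and of -1.16 and -1.13 in WT cells.

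The largest fall among carriers above background on all 12 arrays was that of Slc43a2 (LAT4), which lets branched-chain and aromatic amino acids out of the cell. It lay at -0.19, -0.14 and -0.08 on the KO LPS arrays, against 2.75, 2.80 and 2.90 on the KO PBS arrays, and at -0.84, -0.78 and -1.09 on the WT LPS arrays, against 2.41, 2.41 and 2.47 on the WT PBS arrays. The LPS and PBS arrays stood far apart: it fell by 2.96 ± 0.08 in KO cells (adjusted p = 1.47e-10) and 3.33 ± 0.08 in WT cells (adjusted p = 4.78e-11). Slc43a3, of the same family by sequence but known as a carrier of purine bases, rose by 1.29 ± 0.06 in KO cells and 1.67 ± 0.06 in WT cells. Slc38a6, of the family that carries glutamine, fell by 1.17 ± 0.35 in KO cells and 1.44 ± 0.35 in WT cells, and its WT LPS arrays spread widely, at 0.76, 0.24 and 1.78. Its KO call was lost with the slide as a term (-0.99, adjusted p = 0.134).

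**Figure D3:**
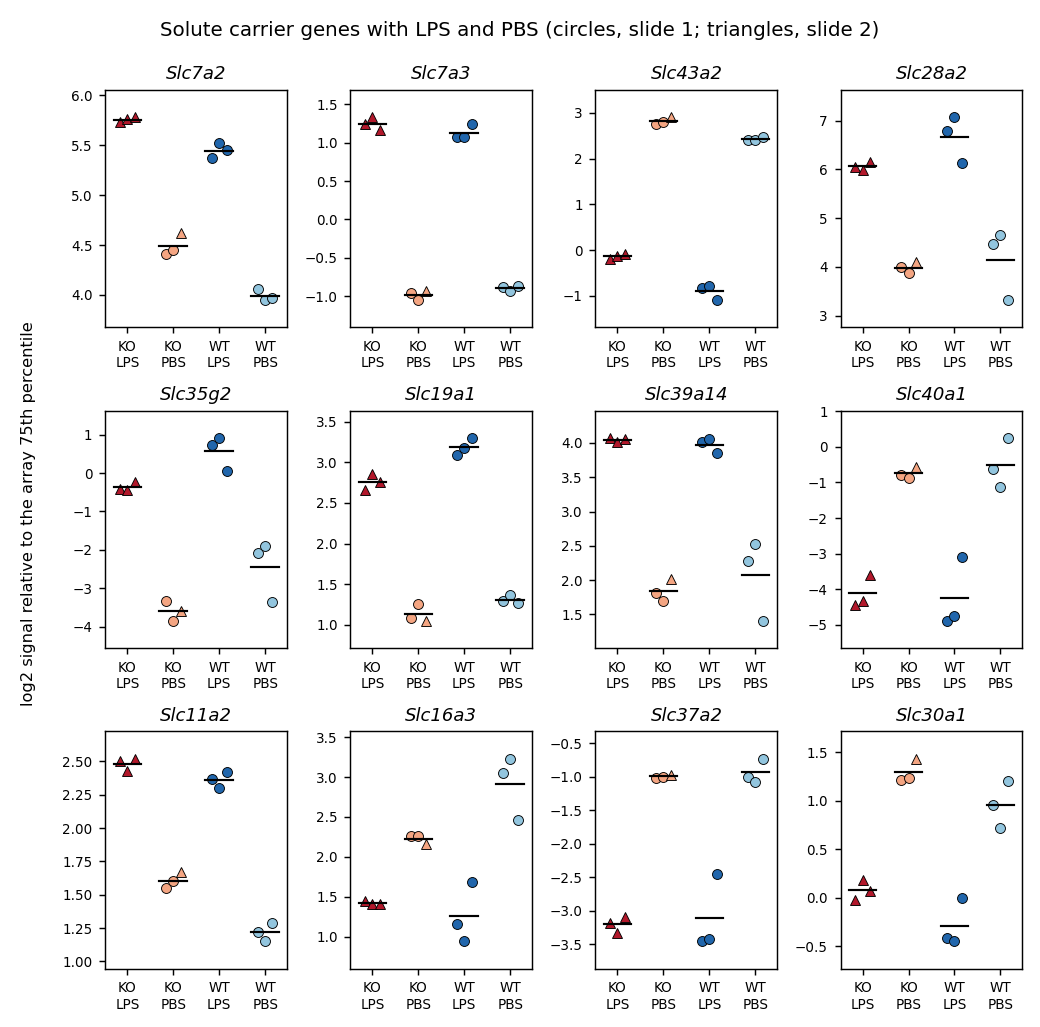
Normalized log2 signal (y axis) of 12 solute carrier genes on each array of KO LPS, KO PBS, WT LPS and WT PBS cells, with bars at the group means, circles for slide 1 and triangles for slide 2. For Slc43a2 the LPS arrays lie at or below -0.08 and the PBS arrays at or above 2.41.

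Of 7 nucleoside carriers, 4 rose in each genotype, where 35.1% of all genes tested were higher in KO cells and 33.7% in WT cells. Slc29a1 (ENT1), which lets adenosine and other nucleosides pass in either direction, lay at 1.43, 1.40 and 1.48 on the KO LPS arrays, against 0.28, 0.20 and 0.13 on the KO PBS arrays, and at 1.88, 1.99 and 1.76 on the WT LPS arrays, against 0.21, 0.26 and 0.12 on the WT PBS arrays. The groups did not overlap, and it rose by 1.23 ± 0.07 in KO cells and 1.68 ± 0.07 in WT cells. Its relative Slc29a2 (ENT2) rose by 1.94 ± 0.10 in KO cells and 1.80 ± 0.10 in WT cells, and by 1.14 and 1.08 with the normexp background correction. Slc28a2 (CNT2), which imports purine nucleosides with sodium, rose by 2.08 ± 0.30 in KO cells and 2.52 ± 0.30 in WT cells, and Slc28a2b, a near-identical paralog, by 2.21 ± 0.29 and 2.64 ± 0.29. The pair may be 1 signal that the counts of rises hold as 2 genes. Replicate 3 was the lowest of Slc28a2 in both WT groups, at 6.13 with LPS and 3.32 with PBS. Slc29a4 (PMAT), a monoamine carrier, was called lower in each genotype but was above background on the WT PBS arrays only. It met the rule through that group, has no direction in KO cells and is no support for a fall. Slc29a3, a lysosomal nucleoside carrier, was called in neither genotype, with 0.05 ± 0.15 in KO cells and 0.30 ± 0.15 in WT cells, though the replicate block called it in WT cells (adjusted p = 0.00215).

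Among 9 carriers of iron, copper and other metals, 3 rose and 3 fell in each genotype. Slc40a1 (ferroportin), the iron exporter, lay at -4.44, -4.33 and -3.60 on the KO LPS arrays, against -0.78, -0.87 and -0.55 on the KO PBS arrays, and at -4.89, -4.76 and -3.11 on the WT LPS arrays, against -0.63, -1.14 and 0.25 on the WT PBS arrays. Only 2 of 3 KO LPS arrays and 1 of 3 WT LPS arrays were above background, and all LPS arrays lay below all PBS arrays. It fell by 3.39 ± 0.45 in KO cells (adjusted p = 3.75e-05) and 3.75 ± 0.45 in WT cells (adjusted p = 1.41e-05), and the sizes are uncertain since they rest in part on arrays not above background. With the normexp background correction the differences were -1.99 in KO cells and -2.13 in WT cells, both called. Slc40a1 met the rule through the PBS groups only, so these values are a description and no support for a fall. Slc11a2 (DMT1), which brings ferrous iron into the cytosol, rose by 0.88 ± 0.05 in KO cells and 1.14 ± 0.05 in WT cells, and lay at 2.43 to 2.52 in KO LPS cells, against 1.55 to 1.67 in KO PBS cells. Slc11a1 (NRAMP1), the phagosomal metal carrier known for its part in resistance to microbes, stayed between 5.16 and 5.39 on all 12 arrays and was called in neither genotype. Slc48a1 (HRG1), which brings heme out of the phagolysosome, fell by 1.15 ± 0.09 in KO cells and 1.21 ± 0.09 in WT cells. Slc25a37 (mitoferrin), the mitochondrial iron importer, fell by 0.76 ± 0.12 in KO cells and 0.67 ± 0.12 in WT cells. Its difference was -0.46 in KO cells with the slide term and -0.39 in WT cells with the mean of its probes, both called. The copper importer Slc31a1 (CTR1) was not called, with 0.08 ± 0.11 in KO cells and 0.18 ± 0.11 in WT cells, and the replicate block called it in WT cells (adjusted p = 0.0112).

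Of 9 other iron genes, 8 were measured above background, and 3 rose and 2 fell in KO cells and 4 rose and 1 fell in WT cells. Tfrc, the transferrin receptor, rose by 1.79 in KO cells and 1.79 in WT cells, and Lcn2, which binds bacterial iron carriers, by 3.06 and 4.35. Hmox1, which degrades heme, fell, with differences of -0.54 in KO cells and -0.60 in WT cells. Hamp, whose peptide hepcidin takes ferroportin off the membrane, was at least 2.79-fold higher with LPS in KO cells and at least 3.19-fold higher in WT cells. It met the rule through the LPS groups only, so this is no support for a rise.

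Of 18 zinc carriers, 6 rose and 5 fell in KO cells and 6 rose and 4 fell in WT cells. Slc39a14 (ZIP14), an importer of zinc and iron, lay at 4.07, 4.01 and 4.06 on the KO LPS arrays, against 1.81, 1.70 and 2.02 on the KO PBS arrays, and at 4.01, 4.06 and 3.86 on the WT LPS arrays, against 2.28, 2.52 and 1.41 on the WT PBS arrays. No LPS array overlapped a PBS array, and WT PBS replicate 3 was the lowest of all. It rose by 2.20 ± 0.21 in KO cells (adjusted p = 2.45e-06) and 1.91 ± 0.21 in WT cells (adjusted p = 7.11e-06). Slc39a8 (ZIP8), another zinc importer, rose by 0.77 ± 0.15 in KO cells and 0.74 ± 0.15 in WT cells, and by 0.32 and 0.48 with the normexp background correction. Slc30a1 (ZnT1), which exports zinc at the plasma membrane, fell by 1.21 ± 0.14 in KO cells and 1.25 ± 0.14 in WT cells. Of 3 other genes of zinc handling, Mt1, Mt2 and Mtf1, all were called higher in each genotype. The zinc-binding metallothioneins Mt1 and Mt2 differed by 0.68 and 1.83 in KO cells and by 0.78 and 2.02 in WT cells.

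Hexose carriers numbered 12, of which 5 rose and 2 fell in KO cells and 3 rose and 2 fell in WT cells. Of these rises, 3 in KO cells and 1 in WT cells belong to genes that passed through a single LPS group. Slc2a1 (GLUT1), the glucose importer, lay at 4.85 to 4.93 in KO LPS cells, against 3.98 to 4.12 in KO PBS cells, and at 4.61 to 4.89 in WT LPS cells, against 4.08 to 4.41 in WT PBS cells. It rose by 0.82 ± 0.09 in KO cells (adjusted p = 5.05e-06) and 0.50 ± 0.09 in WT cells (adjusted p = 0.000257), with no overlap. With quantile normalization the WT difference was 0.29, still called. Slc2a3 (GLUT3), a further glucose importer, was not called, with 0.10 ± 0.09 in KO cells and -0.18 ± 0.09 in WT cells. Of 7 genes of glycolysis and lactate transport outside the family, 3 rose and 1 fell in KO cells and 4 rose and 0 fell in WT cells. The glycolytic enzymes Hk2 and Pfkfb3 differed by 1.58 and 2.43 in KO cells and by 1.41 and 2.74 in WT cells. The others were smaller: Ldha, which makes lactate, differed by 0.16 in KO cells and by 0.13, not called, in WT cells, and Hk1 by 0.06 and -0.04, not called. Hk3 differed by -0.10, not called, in KO cells and by 0.38 in WT cells. Bsg, a partner chain of the lactate carriers, differed by -0.41 in KO cells and by -0.10, not called, in WT cells. Emb, of the same list, went the other way, with 0.24, not called, in KO cells and 0.48 in WT cells.

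The lactate carriers went in opposite directions. Slc16a1 (MCT1), which moves lactate and pyruvate either way, lay at 2.97, 2.96 and 3.04 on the KO LPS arrays, against 1.26, 1.25 and 1.57 on the KO PBS arrays, and rose by 1.63 ± 0.20 in KO cells and 1.54 ± 0.20 in WT cells. Slc16a3 (MCT4), the exporter of glycolytic cells, lay at 1.45, 1.41 and 1.41 on the KO LPS arrays, against 2.26, 2.26 and 2.16 on the KO PBS arrays, and at 1.16, 0.94 and 1.69 on the WT LPS arrays, against 3.05, 3.23 and 2.46 on the WT PBS arrays. All LPS arrays of Slc16a3 lay below all PBS arrays. It fell by 0.80 ± 0.19 in KO cells (adjusted p = 0.00307) and 1.65 ± 0.19 in WT cells (adjusted p = 1.12e-05), and the KO call was lost with the slide as a term (-0.74, adjusted p = 0.0523). Slc16a7 (MCT2), a further lactate carrier, has probes that went opposite ways in KO cells, at 1.09, -1.17 and -1.19, so its direction is uncertain. Slc13a3, a carrier of dicarboxylates, fell by 0.74 ± 0.27 in KO cells, a call lost with the slide term, and had -0.05 ± 0.27 in WT cells, not called.

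Lysosomal and plasma membrane peptide carriers bring bacterial fragments to sensors in the cytosol. Slc15a3 (PHT2) rose by 0.57 ± 0.07 in KO cells and 0.81 ± 0.07 in WT cells, and Slc15a4 (PHT1) fell by 0.70 ± 0.07 in KO cells and 0.67 ± 0.07 in WT cells. Of 4 genes of peptide sensing, 3 were measured above background, and 2 rose and 0 fell in each genotype. The sensors Nod1 and Nod2 differed by 0.46 and 0.90 in KO cells and by 1.21 and 0.82 in WT cells. Of 12 vitamin and choline carriers, 3 rose and 3 fell in KO cells and 3 rose and 4 fell in WT cells. The reduced folate carrier Slc19a1 lay at 2.66, 2.86 and 2.76 on the KO LPS arrays, against 1.08, 1.25 and 1.05 on the KO PBS arrays, and at 3.09, 3.18 and 3.30 on the WT LPS arrays, against 1.29, 1.37 and 1.27 on the WT PBS arrays. The groups did not overlap, and it rose by 1.63 ± 0.07 in KO cells and 1.88 ± 0.07 in WT cells. Slc46a3, a lysosomal carrier, fell by 1.79 ± 0.10 in KO cells and 1.45 ± 0.10 in WT cells, and the choline carrier Slc44a2 by 1.21 ± 0.09 in KO cells and 0.89 ± 0.09 in WT cells.

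Of 10 phosphate and sugar-phosphate carriers, 3 rose and 5 fell in KO cells and 2 rose and 5 fell in WT cells. Slc37a2, a sugar-phosphate exchanger of the endoplasmic reticulum known from macrophages, lay at -3.33 to -3.10 on the KO LPS arrays, against -1.01 to -0.97 on the KO PBS arrays, and at -3.46, -3.42 and -2.46 on the WT LPS arrays, against -1.07 to -0.73 on the WT PBS arrays. LPS and PBS arrays did not overlap, with 2 of 3 WT LPS arrays above background, and it fell by 2.21 ± 0.22 in KO cells and 2.18 ± 0.22 in WT cells. With the normexp background correction the differences were -1.32 in KO cells and -1.25 in WT cells, both called. Slc17a9 (VNUT), which loads ATP into vesicles, fell by 1.42 ± 0.09 in KO cells and 1.54 ± 0.09 in WT cells, and Slc17a5 (sialin), which lets sialic acid out of lysosomes, by 1.06 ± 0.14 and 1.43 ± 0.14.

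Of 29 genes in the ion and pH families, the scaffolds and the adaptor included, 6 rose and 12 fell in KO cells and 7 rose and 12 fell in WT cells. Among all genes tested, 32% were lower in KO cells and 31% in WT cells. Of the falls in WT cells, 1 belongs to a gene that passed through the WT PBS group alone. Slc9a8, a sodium-proton exchanger, rose by 0.81 ± 0.05 in KO cells and 0.96 ± 0.05 in WT cells. Slc4a4 (NBCe1), a sodium bicarbonate carrier, was above background on no KO PBS array and was at least 1.99-fold higher with LPS in KO cells (adjusted p = 1.32e-05). In WT cells it rose by 1.19 ± 0.17, and by 0.71 with the normexp background correction.

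Among 20 organic ion carriers, 7 rose and 7 fell in KO cells and 7 rose and 8 fell in WT cells. Slco2b1 (OATP2B1), a carrier of steroid sulfates and many drugs, lay at 0.74, 0.55 and 1.19 on the KO LPS arrays, against -4.43, -5.56 and -4.38 on the KO PBS arrays, none of them above background. It lay at 0.55, 0.89 and -0.79 on the WT LPS arrays, against -2.08, -1.90 and -6.16 on the WT PBS arrays, of which 2 were above background. Replicate 3 was the lowest in both WT groups. It was at least 31.9-fold higher with LPS in KO cells (adjusted p = 0.000179) and rose by 3.60 ± 0.91 in WT cells (adjusted p = 0.00412). It met the rule through the LPS groups only, so these values are a description and no support for a rise. The WT difference was 2.18 with the normexp background correction and 2.20 without WT PBS replicate 3, both called. Slco3a1, an organic anion carrier, rose by 1.15 ± 0.14 in KO cells and 1.52 ± 0.14 in WT cells, and Slc22a4, which carries ergothioneine, fell by 1.14 ± 0.12 in KO cells and 1.31 ± 0.12 in WT cells. Slc22a23, with no known substrate, was above background on no LPS array and was at least 2.52-fold lower with LPS in KO cells and at least 2.14-fold lower in WT cells. It met the rule through the PBS groups only, so this is no support for a fall. Slco4a1 had probes called in opposite directions in WT cells, at 0.58 and -0.42, and so did Slc49a4, at -0.41 and 0.61, while those of Slc35e1 did so in KO cells, at 0.26 and -0.32. Of 8 neurotransmitter and osmolyte carriers, 3 rose and 3 fell in KO cells and 3 rose and 2 fell in WT cells, and the betaine carrier Slc6a12 (BGT1) fell by 1.63 ± 0.18 in KO cells and 1.37 ± 0.18 in WT cells, with differences of -0.98 and -0.91 after the normexp background correction.

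Mitochondrial carriers, the class with the most genes, showed 10 rises and 14 falls in KO cells and 8 rises and 14 falls in WT cells among 38. Slc25a13 (citrin), which exchanges aspartate and glutamate, lay at -1.58, -1.52 and -1.67 on the KO LPS arrays, against -0.61, -0.43 and -0.41 on the KO PBS arrays, and at -1.94, -2.01 and -1.91 on the WT LPS arrays, against -0.55, -0.77 and -0.38 on the WT PBS arrays. The groups did not overlap, and it fell by 1.11 ± 0.10 in KO cells and 1.39 ± 0.10 in WT cells. Slc25a45, another member of the family, fell by 1.63 ± 0.09 in KO cells and 1.61 ± 0.09 in WT cells. Slc25a27 (UCP4) was above background on no LPS array and was at least 1.94-fold lower with LPS in KO cells and at least 1.51-fold lower in WT cells. It met the rule through the PBS groups only, so this is no support for a fall. Slc25a1, the citrate carrier, was called in neither genotype, with -0.14 ± 0.08 in KO cells and 0.04 ± 0.08 in WT cells, while of 3 enzymes that use or make citrate or itaconate 1 rose and 2 fell in each genotype. Acod1, which makes itaconate, differed by 0.52 in KO cells and 0.82 in WT cells, and the citrate-cleaving enzyme Acly by -0.59 and -0.58.

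Of 21 nucleotide sugar carriers of the Slc35 family, 5 rose and 7 fell in KO cells and 6 rose and 7 fell in WT cells. Slc35g2, with no known substrate, lay at -0.42, -0.45 and -0.23 on the KO LPS arrays, against -3.34, -3.84 and -3.59 on the KO PBS arrays, and at 0.74, 0.91 and 0.05 on the WT LPS arrays, against -2.07, -1.90 and -3.35 on the WT PBS arrays. LPS and PBS arrays stood apart in both genotypes, and replicate 3 was the lowest in both WT groups. It rose by 3.22 ± 0.33 in KO cells (adjusted p = 4.16e-06) and 3.01 ± 0.33 in WT cells (adjusted p = 6.39e-06), with 2.13 in KO cells after the normexp background correction. Slc35f2 rose by 2.35 ± 0.09 in KO cells and 2.38 ± 0.09 in WT cells. Of the 4 lipid carriers, 1 rose and 0 fell in KO cells, and 0 rose and 3 fell in WT cells.

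The promoters of the genes called with an estimate of at least 2-fold in both genotypes, 18 higher and 18 lower, were set beside these differences. The sets follow the estimates, also for genes above background on no array of a group. For Slc4a4 in KO cells and Slc25a27 in both genotypes the lower bounds given above were under 2-fold. The lower genes include Slc29a4, Slc22a23, Slc25a27 and Slc40a1, which are no support for a fall. The higher genes include Slco2b1, which is no support for a rise. RefSeq promoters (GRCm38.p6) were available for 174 of the 229 genes, 234 promoters in all, and their 250 bases before the start were searched on both strands for AP-1 (TGANTCA), E-box (CACGTG), NF-kB, interferon response, C/EBP (TTGCNNAAT), antioxidant response (TGACNNNGC) and metal response (TGCNCNC) letters. Promoters were found for 13 of the 18 higher genes (25 promoters) and for 13 of the 18 lower genes (18 promoters). By gene, the AP-1 letters were in 0 of 13 higher genes and in 3 of 13 lower genes (23.1%), against 6.02% of genes tested and 7.82% of all genes with a promoter. By promoter, they were in 0 of 25 and in 3 of 18 (16.7%), against 4.99% of the promoters of genes tested and 6.75% of all promoters. The E-box letters were in 12.4% of solute carrier promoters, against 8.1% of those of genes tested. Among the changed genes they were in 2 of 25 promoters of higher genes (8.0%) and in 2 of 18 of lower genes (11.1%). The shares in solute carrier promoters were 0.855% for NF-kB against 1.41%, 0.855% for interferon response against 2.83%, 1.28% for C/EBP against 1.72%, 16.2% for antioxidant response against 11.7%, and 53.8% for metal response against 51.4%. By gene, the antioxidant letters were in 30.8% of higher and 23.1% of lower genes, against 13.8% of genes tested. Metal response letters were in 61.5% and 76.9%, against 55.4%. The NF-kB letters were in 0 of 13 higher genes and 1 of 13 lower genes (7.69%), against 1.7%. Interferon response and C/EBP letters were in 0 of 13 of either set. A match is a description and not a binding site. Sites with other letters were not searched, so a lack of matches does not show that a factor has no site there. The 4 promoters shown were chosen after the values were seen, for the AP-1 letters of the 3 lower genes and for the E-box of the lactate carrier, with these letters in capitals. Slc25a13 is at chr6:6217174-6217423 on the minus strand, with AP-1 letters 130 to 124 bases before the start and an overlapping E-box that begins 125 bases before it. Slc37a2 is at chr9:37255739-37255988 on the minus strand, with AP-1 letters 107 to 101 bases before the start. Slc6a12 is at chr6:121342324-121342573 on the plus strand, with AP-1 letters 58 to 52 bases before 1 of its 5 starts. Its NF-kB letters, which begin 133 bases before that start, are not in capitals. Slc16a1 is at chr3:104638414-104638663 on the plus strand, with the E-box 200 to 195 bases before the start.
Slc25a13: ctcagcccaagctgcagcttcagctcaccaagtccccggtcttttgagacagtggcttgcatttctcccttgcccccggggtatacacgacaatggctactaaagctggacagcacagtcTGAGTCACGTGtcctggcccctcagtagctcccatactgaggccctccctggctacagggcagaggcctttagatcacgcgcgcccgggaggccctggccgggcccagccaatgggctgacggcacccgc
Slc37a2: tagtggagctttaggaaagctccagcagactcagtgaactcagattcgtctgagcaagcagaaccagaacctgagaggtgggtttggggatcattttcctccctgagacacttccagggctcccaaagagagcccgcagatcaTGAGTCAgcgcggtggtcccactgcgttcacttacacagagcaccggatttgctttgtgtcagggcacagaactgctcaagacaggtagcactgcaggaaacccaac
Slc6a12: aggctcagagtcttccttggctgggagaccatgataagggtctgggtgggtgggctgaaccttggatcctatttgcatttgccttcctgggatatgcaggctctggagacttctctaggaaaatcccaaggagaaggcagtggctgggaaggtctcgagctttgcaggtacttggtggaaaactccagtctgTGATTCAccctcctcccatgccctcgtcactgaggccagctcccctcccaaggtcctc
Slc16a1: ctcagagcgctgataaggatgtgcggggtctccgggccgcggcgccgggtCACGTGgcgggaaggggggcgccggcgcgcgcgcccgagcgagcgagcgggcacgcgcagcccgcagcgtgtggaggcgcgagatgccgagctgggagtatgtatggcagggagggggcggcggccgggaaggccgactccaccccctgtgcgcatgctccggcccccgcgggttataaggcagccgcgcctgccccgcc

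Between KO and WT cells in PBS, 16 solute carriers were called higher (6.99%, against 8.06% of all genes tested) and 9 lower (3.93%, against 6.05%) in KO, together 10.9% against 14.1%. Markers of other cells differed beside them: 0 B-cell markers were higher and 7 lower in KO PBS cells, 0 T-cell markers higher and 3 lower, and 2 neutrophil markers higher and 0 lower, of which S100a9 was 6.23-fold higher in KO (adjusted p = 0.00562). The summed log2 level of neutrophil markers was 2.65 to 3.22 in KO PBS cells, against 1.78 to 2.09 in WT PBS cells. Of 8 mast-cell markers, 0 were higher and 1 lower, and of 11 macrophage markers 3 were higher and 0 lower. The part of all these markers in the differences below was not tested. Slc15a2 (PEPT2), a plasma membrane importer of small peptides and bacterial wall fragments, lay at 1.11, 1.48 and 0.98 on the KO PBS arrays, against -0.67, -0.45 and -1.89 on the WT PBS arrays. After LPS it lay at 2.00, 2.11 and 1.54 on the KO LPS arrays, against -0.30, 0.11 and -1.50 on the WT LPS arrays. Every KO array lay above every WT array, and replicate 3 was the lowest in both WT groups. The difference in PBS was 2.19 ± 0.41 (4.58-fold higher, adjusted p = 0.00523), it was 2.30 on slide 1 alone (adjusted p = 0.0392), and its call was lost with the mean of the gene's probes (0.65, adjusted p = 0.0596). Slc15a2 lies on chromosome 16, which also carries Gpr15, and 2 of the 5 solute carriers measured there were called in PBS, against 16% of 413 genes of that chromosome. Its LPS differences were not called without a block (0.69 ± 0.41 in KO cells and 0.44 ± 0.41 in WT cells), and the replicate block called it in WT cells (adjusted p = 0.00151).

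Slc16a10 (TAT1), which carries aromatic amino acids, lay at 0.80, 0.80 and 0.97 on the KO PBS arrays, against -0.39, -0.65 and 0.18 on the WT PBS arrays, with no overlap. It was higher in KO by 1.14 ± 0.17 (adjusted p = 0.00112) and by 1.08 on slide 1 alone (adjusted p = 0.0233). Its call was the single one of 22 named calls in PBS kept under every alternative tried. Slc2a6 (GLUT6), a lysosomal hexose carrier, was higher by 0.69 ± 0.08, the arginine importer Slc7a2 by 0.50 ± 0.06 and the iron importer Slc11a2 by 0.39 ± 0.05. Slc43a2 was higher by 0.39 ± 0.08, Slc7a8 (LAT2), a neutral amino acid exchanger, by 0.52 ± 0.09, and Slc31a2, a copper carrier, by 0.51 ± 0.08. All of these KO PBS arrays lay above the WT PBS arrays.

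Of the genes lower in KO in PBS, Slc4a4 was above background on no KO PBS array and was at least 1.61-fold lower (adjusted p = 0.0013). Slc16a3 was lower by 0.69 ± 0.19 (adjusted p = 0.0367), and on slide 1 alone by a difference of -0.65 that was not called (adjusted p = 0.159). Slc12a7, a potassium chloride carrier, was lower by 0.61 ± 0.12, Slc2a3 by 0.41 ± 0.09 (a call lost with the normexp background correction, -0.25) and Slc17a9 by 0.36 ± 0.09. Slc35g2 was lower by 1.15 ± 0.33, with overlap between its arrays, and by a difference of -0.61 that was not called after the normexp background correction (adjusted p = 0.0822).

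After LPS, 52 solute carriers were called higher (22.7%, against 20% of all genes tested) and 32 lower (14%, against 19.5%) in KO than in WT cells, together 36.7% against 39.5%. Without the genes that passed through a single group the counts were 48 higher and 32 lower. Of 11 B-cell markers above background, 0 were higher and 5 lower in KO after LPS, and of 8 T-cell markers 1 was higher and 3 lower. Of 7 neutrophil markers 2 were higher and 0 lower, of 8 mast-cell markers 0 higher and 3 lower, and of 11 macrophage markers 3 higher and 1 lower. The summed log2 level of mast-cell markers was 7.55 to 7.68 in KO LPS cells, against 7.91 to 8.04 in WT LPS cells. The part of these markers in the differences was not tested. Adding the slide to the fit left 7 higher and 6 lower calls. In that term the slides are set by the KO PBS arrays. Of 48 named calls, 5 were kept under every alternative tried. Slc43a2 was higher in KO LPS cells by 0.76 ± 0.08 (slide term 0.64, mean of its probes 0.49) and Slc26a11, a sulfate and chloride carrier, by 0.46 ± 0.09 (slide term 0.65). Slc23a1, a vitamin C importer, was lower by 1.46 ± 0.18 (slide term -1.61), Slc25a22, a mitochondrial glutamate carrier, by 0.79 ± 0.08 (slide term -0.60) and Slc35a5 by 0.33 ± 0.07 (slide term -0.52). Slc15a2 was higher by 2.44 ± 0.41 (adjusted p = 0.00124) and by 2.76 with the slide term, where the call was lost (adjusted p = 0.0691).

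In some carriers the single KO PBS array on slide 2 lay apart from the other KO PBS arrays. The slide and that array's own sample cannot be told apart. Slc45a3 lay at 1.29, 1.37 and 1.40 on the KO LPS arrays, against 0.53, 0.55 and 1.42 on the KO PBS arrays. Slc22a13, a carrier of organic anions, lay at -1.57, -1.42 and -1.47 on the KO LPS arrays, against -2.60, -2.63 and -1.65 on the KO PBS arrays. Slc25a44, which carries branched-chain amino acids into mitochondria, lay at 0.55, 0.48 and 0.63 on the KO LPS arrays, against -0.35, -0.41 and 0.66 on the KO PBS arrays. In each, KO PBS replicate 3, on slide 2, lay with the KO LPS arrays and apart from the other KO PBS arrays. Their differences from WT after LPS were 1.01 ± 0.19 for Slc45a3, 0.88 ± 0.21 for Slc22a13 and 1.09 ± 0.25 for Slc25a44. The slide term left 0.13 for Slc45a3, -0.08 for Slc22a13 and 0.05 for Slc25a44.

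**Figure D4:**
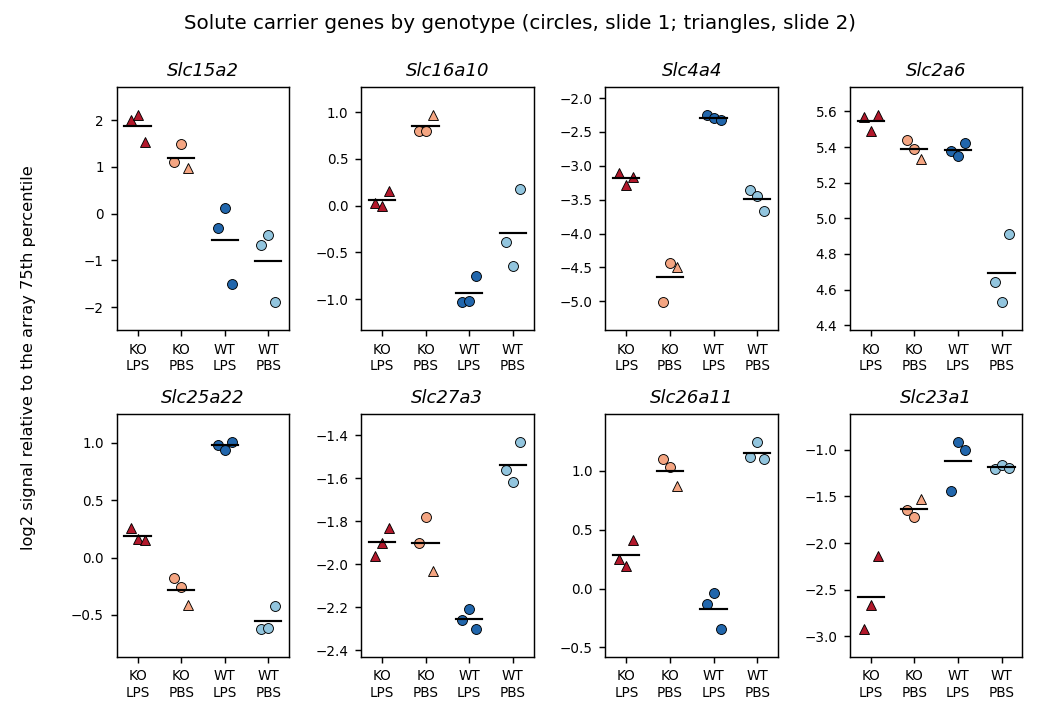
Normalized log2 signal (y axis) of 8 solute carrier genes on each array of KO LPS, KO PBS, WT LPS and WT PBS cells, with bars at the group means, circles for slide 1 and triangles for slide 2. For Slc15a2 all KO arrays lie at or above 0.98 and all WT arrays at or below 0.11.

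The response to LPS differed between KO and WT cells for 9 solute carriers, 3.93% against 4.31% of all genes tested. In KO the difference was higher for 3 (1.31%, against 0.926%) and lower for 6 (2.62%, against 3.39%). Slc25a22 lay at 0.26, 0.16 and 0.15 on the KO LPS arrays, against -0.18, -0.26 and -0.41 on the KO PBS arrays, and at 0.98, 0.94 and 1.01 on the WT LPS arrays, against -0.62, -0.61 and -0.42 on the WT PBS arrays. LPS raised it by 0.47 ± 0.08 in KO cells and 1.53 ± 0.08 in WT cells, and the responses differed by 1.06 ± 0.11, less in KO (adjusted p = 9.59e-05). Slc27a3, of the fatty acid transport family, lay at -1.96, -1.90 and -1.83 on the KO LPS arrays, against -1.90, -1.78 and -2.03 on the KO PBS arrays, which overlapped. It lay at -2.26, -2.21 and -2.30 on the WT LPS arrays, against -1.56, -1.62 and -1.43 on the WT PBS arrays, and fell by 0.72 ± 0.09 there (a difference of -0.44 with the normexp background correction). The responses differed by 0.72 ± 0.13 (adjusted p = 0.00718). Both calls were kept under every alternative tried, with -0.93 for Slc25a22 and 0.85 for Slc27a3 in the fit with the slide term.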

How the data were processed

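RNA of 12 macrophage samples was labelled with Cy3 and hybridised to 1 array each. The deposited values are intensity values, the processed signal of each spot that Agilent Feature Extraction 11.5.1.1 gave, per the submitters' processing notes, with background flags beside them. Each array has 59305 spots that are not controls, of which 48.8% to 57.1% were well above background, and the number of arrays limits the precision. The signal was divided by its 75th percentile (469.6 to 574.1) and put on the log2 scale, and spots of a probe were averaged. Of 56605 probes, 58.3% had a symbol. limma 3.58.1 in R 4.3.3 (lmFit, then eBayes with a trend) fitted the 4 group means over 13283 genes, with Benjamini-Hochberg adjustment and a threshold of 0.05. Where a named gene was dark in a group, a lower bound of the fold replaced the estimate. The counts and the promoter sets kept the estimate.

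Named genes were the largest called rises and falls without overlap, the largest bounds, up to 3 genes per class and a fixed list. The members, classes, lists and motifs were chosen with earlier results of these data known. Deviations of WT LPS and WT PBS arrays that share a number correlated at 0.105, 0.371 and 0.481. Across numbers, WT replicates 1 and 2 correlated at 0.154 and 0.236, so the WT values do not show pairing of replicates 1 and 2 by number. KO arrays that share a number correlated at 0.04, 0.113 and 0.081, and those of unlike number at 0.019 or below. Alternatives covered normalization, background correction, probe filters, the replicate block, the slide and leaving out each array. The mean signal was not used here, so the normexp background correction ran on the median signal.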

Additional observations from a re-analysis of the deposited data

Results flagged for a closer look

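For 9 solute carriers the LPS response differed between KO and WT cells in the test of that difference (limma, adjusted p below 0.05). The response in KO cells minus that in WT cells was 0.92 for Slc25a30, 0.72 for Slc27a3 and 0.61 for Slc26a11. It was -0.38 for Slc43a3, -0.45 for Slc29a1, -0.49 for Slc7a8, -0.53 for Slc2a6, -1.01 for Slc23a1 and -1.06 for Slc25a22. The calls of Slc27a3 and Slc25a22 were kept under every alternative tried, and each of the other 7 was lost under at least 1. The KO LPS arrays are all on slide 2 and the WT arrays all on slide 1.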

How the results depend on the processing

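The counts of LPS calls stayed within 1.5 times under every alternative tried, and leaving out 1 array gave 67 to 79 higher and 72 to 84 lower in KO cells and 65 to 68 higher and 75 to 79 lower in WT cells. Of the named LPS calls, 67 of 79 in KO cells and 72 of 80 in WT cells were kept in all alternatives. The genotype counts moved more. In PBS, the 16 higher became 2 with the replicate block, and 11 to 26 with 1 array left out. The 9 lower became 5 with only the arrays compared, 0 with the replicate block and 4 on slide 1 alone, and 3 (without WT PBS replicate 1) to 17 (without WT PBS replicate 3) with 1 array left out. The labels do not say whether KO and WT samples of the same number belong together, so what that block removes cannot be told. Deviations of KO PBS and WT PBS arrays that share a number correlated at -0.042, -0.068 and -0.102, and those of unlike number at 0.097 or below. After LPS, the 52 higher became 31 with the array median, 7 with the slide term and 14 with the slide as a random block, and 35 to 51 with 1 array left out. The 32 lower became 55, 6 and 8 under those settings, and 16 (without KO LPS replicate 3) to 28 with 1 array left out. For the difference in response, the 3 higher became 10 with the replicate block, and 1 to 20 (without KO PBS replicate 3) with 1 array left out. The 6 lower became 10 with the array median, 3 without a filter on dim probes, 3 with the mean of the probes, 12 with the replicate block, 1 with the slide term and 3 with the slide as a random block, and 1 to 24 (without KO PBS replicate 3) with 1 array left out. With the mean of the probes, the LPS differences of Slc49a4 (0.12 in KO cells, 0.10 in WT cells) and Slc16a7 (-0.42 in KO cells) changed sign, as their probes disagree. The LPS difference of Slc45a3 in KO cells was -0.07 with the slide term and -0.07 on slide 2 alone, an alternative chosen after seeing the data. After LPS, the genotype differences of Slc22a13 (-0.08), Slc14a2 (-0.14) and Slc25a47 (0.00) changed sign with the slide term. The replicate block in WT cells also called Slc16a7 (-0.78, adjusted p = 0.0228) and Slc45a3 (-0.21, adjusted p = 0.0304), and lost Slc22a18 (adjusted p = 0.0552) and Slc14a1 (adjusted p = 0.058). Other causes were not tested.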
